A study of Mus musculus with 6 samples.

Results

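The genes described here are 33 macrophage and leukocyte genes of the embryonic mouse kidney. They were chosen by name, with earlier results of these data known. They are receptors and transcription factors of the lineage, general leukocyte genes, the complement C1q chains, and Fc receptors with their adaptors. Scavenger receptors, degradative enzymes and surface markers complete the list. They were found through the RefSeq accessions of the array's probes, and each gene was read from its brightest probe. A probe was matched for 32 of the 33 members among 17235 named genes, and all 32 were well above background on enough arrays to be tested among 26395 features. Cd68, the lysosomal membrane protein macrosialin, had no probe matched by accession and was not measured here.

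The study compared kidneys of E14.5 embryos with and without the zinc finger gene Sall1 on 6 one-colour Agilent arrays, in mice of mixed 129 and C57BL/6 background. In the line with Six2Cre and floxed Sall1, in which Cre is driven in nephron progenitors, the 2 controls carry the numbers 5 and 2 and the 2 knockouts the numbers 7 and 9. In the line with Sall1CreER and floxed Sall1, tamoxifen was given at E12.5 and kidneys were taken 48 hours later. That line gave 1 control array, titled wt/flox (replicate 2), and 1 knockout array, titled CreER/flox (replicate 5). Each label states the genotype, but which line an array belongs to was inferred from how its title is written and from the design text, and every comparison within a line rests on that. Only the knockout's title holds CreER, so carrying CreER and losing Sall1 cannot be told apart there. The labels leave unsaid if Cre was present in the Six2Cre controls, what the loxP sites of Sall1 flank, and if arrays came from different embryos. One description mentions tamoxifen for all samples. The p-values below therefore measure only the spread between these samples, which may be technical.

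Macrophages enter the kidney early in development from yolk sac and fetal liver precursors. They depend on signalling through the receptor Csf1r, whose gene is switched on by the transcription factor PU.1, encoded by Spi1. In the embryo they clear dying cells, and macrophages carry Fc and scavenger receptors, C1q and lysosomal proteases. Sall1 itself is known in one macrophage type, the microglia of the brain, whereas in the kidney it is a factor of nephron progenitors. These arrays measured whole kidneys, so that fewer cells of a type and less RNA per cell cannot be told apart.

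PU.1 binds a short purine-rich sequence, the PU box, and 120 bases before the start site are shown for members with that box, because PU.1 is the lineage's best known factor. The promoter table of RefSeq (mouse build GRCm38.p6) held 23 of the 33 members in 28 windows. The letters GAGGAA, searched on both strands in the 250 bases before the start, were found in 15 of those 28 windows (53.6%) and in 23.3% of all 32851 windows. The longer form GAGGAAGT, which contains the first, was found in 1 member window, that of C1qc, and in 2.44% of all windows. Counted by gene, 14 of the 23 members held the box (60.9%). Members whose signal was higher in both Six2Cre pairs held it in 11 of 16 genes, and the other measured members in 2 of 6. No share by gene was taken over all genes, so these counts have no like background, and a link of the box to the differences was not tested. Capitals mark the box on either strand (GAGGAA or its reverse complement TTCCTC). The first 5 windows are from members that were higher in both Six2Cre pairs, and Itgam and Laptm5 are the 2 members of opposite sign in the pairs whose windows held the box.
C1qb, chr4:136886201-136886320, minus strand: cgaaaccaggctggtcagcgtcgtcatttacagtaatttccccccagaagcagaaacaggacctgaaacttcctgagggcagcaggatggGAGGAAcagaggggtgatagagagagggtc
Cd53, chr3:106790150-106790269, minus strand: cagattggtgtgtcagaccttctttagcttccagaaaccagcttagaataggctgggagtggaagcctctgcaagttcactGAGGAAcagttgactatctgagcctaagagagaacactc
Fcgr1, chr3:96293970-96294089, minus strand: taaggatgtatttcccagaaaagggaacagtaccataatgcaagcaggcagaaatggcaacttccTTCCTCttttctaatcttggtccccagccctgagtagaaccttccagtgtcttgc
Plek, chr11:17008719-17008838, minus strand: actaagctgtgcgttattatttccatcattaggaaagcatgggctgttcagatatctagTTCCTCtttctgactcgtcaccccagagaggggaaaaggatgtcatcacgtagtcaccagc
Trem2, chr17:48346281-48346400, plus strand: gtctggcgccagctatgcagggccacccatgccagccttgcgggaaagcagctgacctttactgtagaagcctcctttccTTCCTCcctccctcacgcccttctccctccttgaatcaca
Itgam, chr7:128062520-128062639, plus strand: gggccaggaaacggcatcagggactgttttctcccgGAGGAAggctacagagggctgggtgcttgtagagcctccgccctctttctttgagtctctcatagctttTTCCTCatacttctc
Laptm5, chr4:130913196-130913315, plus strand: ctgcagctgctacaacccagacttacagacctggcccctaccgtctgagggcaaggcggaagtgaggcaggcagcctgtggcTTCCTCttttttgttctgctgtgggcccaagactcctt
A match of these letters is a description of the sequence and is not a measured binding site.

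Values are log2 signals relative to the 75th percentile of the array, so that 0 is the signal of a probe at that percentile, and a difference of 1 is a doubling. Six2Cre control 5 and knockout 7 shared slide 1, and the other 4 arrays shared slide 2, so each knockout was also read against the control of its line on the same slide. Between 80.0% and 82.9% of probes were well above background on 5 arrays, against 71.8% on CreER knockout 5, where the negative controls had an SD of 4.01 signal units against 1.46 to 1.61 on the others. Sall1 itself was lower in each knockout, by 1.27, 1.23 and 2.78 log2 units in the slide 1, slide 2 and CreER pairs. Skeletal muscle markers stood apart on Six2Cre control 2, with a summed signal of 56.7 times the 75th percentile against 4.42 to 7.90 on the other arrays. Results of the Six2Cre line are therefore given by pair, and the members' summary also without that array.

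In the Six2Cre kidneys, most of the measured macrophage and leukocyte genes had higher signals in the knockouts than in the controls, by a median of 0.62 log2 units against 0.03 over all features. As the members were chosen with earlier results of these data known, the counts below describe them and are no independent test. The mean difference was above 0 for 27 of 32 members, as for 53.9% of all features. The knockout was above the control in both slide pairs for 24 of 32 members, where 34.7% of all features were. Both knockout arrays were above both control arrays for 21 members, with a background of 17.6%. At least 1.5-fold in both pairs was reached by 14 members, and by 4.53% of all features. Ms4a7 and Cd14 were the 2 members at 2-fold or more in the mean, a size that 2.96% of features reached. The median difference of the members was 0.57 on slide 1 and 0.77 on slide 2. Without Six2Cre control 2, the array with the muscle signal, the median was 0.59, 26 members had a mean difference above 0 and both knockouts were above the remaining control for 24, as for 35.8% of all features.

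No member passed limma's test at an adjusted p of 0.05 (Benjamini-Hochberg over 26395 features), and neither did any other feature in either direction (0% called). The fit of 4 groups left 2 residual degrees of freedom, and 1 with the slide as a block. At an unadjusted p under 0.05, 8 members were higher and 0 lower, beside 3.63% and 2.7% of all features. With the slide as a block, 19 members were higher at an unadjusted p under 0.05, beside 7.04% of all features, and again no feature passed after adjustment. The lowest adjusted p of a member in limma's test without the block was 0.392, that of Cd14.

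**Figure D1:**
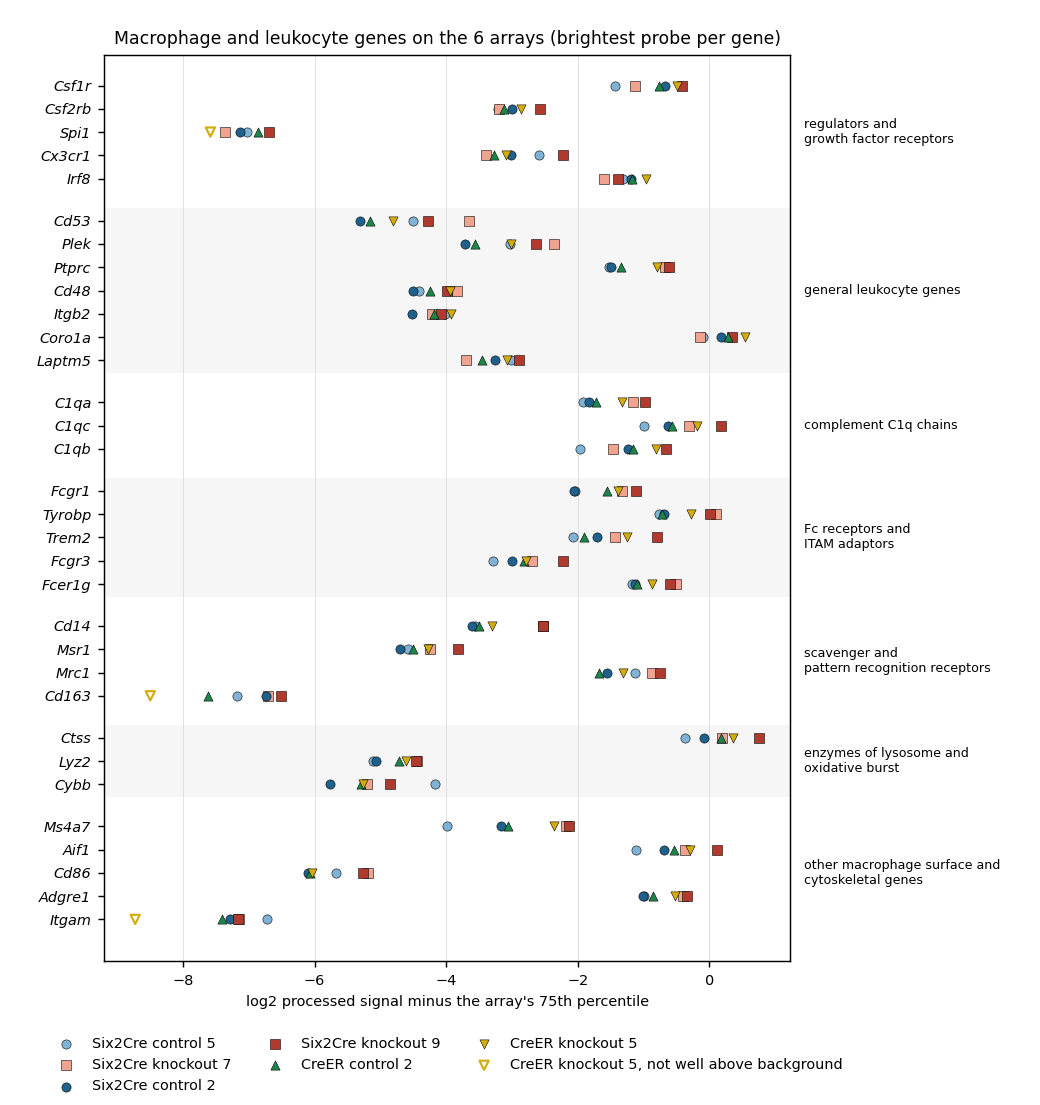
Level of each of the 32 measured members on the 6 arrays, as the log2 signal relative to the array's 75th percentile (x axis), grouped by role. Each marker is 1 array. Hollow markers are the 3 members not well above background on CreER knockout 5. For 21 members both Six2Cre knockout squares lie to the right of both control circles.

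The transcription factors and receptors of the lineage had the Six2Cre median nearest 0 among the roles, 0.05 over 5 members. This value joined pairs of opposite sign, with medians of -0.29 on slide 1 and 0.42 on slide 2. Csf1r, the receptor for colony-stimulating factor 1, was at -1.44 and -0.67 on Six2Cre controls 5 and 2, at -1.13 and -0.41 on knockouts 7 and 9, at -0.76 on the CreER control and at -0.50 on the CreER knockout. The knockout was above its control within every pair, by 0.31, 0.26 and 0.26, but the groups overlapped across slides, as control 2 was above knockout 7. The Six2Cre difference was 0.29 ± 0.42 (log2, SE, n = 2 and 2), or 1.22-fold. Its probes gave 0.12 to 0.29.

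Irf8, a transcription factor of monocytes and macrophages, was the single member whose brightest probe was lower in both Six2Cre pairs, where 24.4% of features were. Its levels were -1.31 and -1.19 on the controls, -1.60 and -1.40 on the knockouts, -1.17 on the CreER control and -0.95 on the CreER knockout. Both Six2Cre knockouts were below both controls, whereas the CreER knockout was above its control. The Six2Cre difference was -0.25 ± 0.25 (SE, n = 2 and 2).

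Spi1 had dim signals of -7.03 and -7.13 on the Six2Cre controls and -7.37 and -6.69 on the knockouts, so that the knockouts lay on either side of the controls. Cx3cr1, the fractalkine receptor, was lower on slide 1 by 0.81 and higher on slide 2 by 0.79. Its mean Six2Cre difference of -0.01 had a 95% interval of -1.25 to 1.22. Csf2rb, the shared beta chain of receptors for the cytokines GM-CSF and IL-5, differed by 0.22 ± 0.32 in the Six2Cre line (SE, n = 2 and 2) and by 0.25 in the CreER pair.

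Among 7 general leukocyte genes, 4 were higher in both Six2Cre pairs and 3 had opposite signs in the pairs. Ptprc, which encodes the common leukocyte antigen CD45, was at -1.53 and -1.49 on the controls and -0.67 and -0.61 on the knockouts of the Six2Cre line, and at -1.34 and -0.80 on the CreER control and knockout. Control and knockout arrays did not overlap in the Six2Cre line, and all 3 knockouts were above all 3 controls. The Six2Cre difference was 0.87 ± 0.24 (SE, n = 2 and 2), 1.83-fold, with an adjusted p of 0.531 in limma. Its 2 probes well above background gave 0.87 and 1.06.

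Plek, the platelet and leukocyte protein pleckstrin, was at -3.03 and -3.72 on the Six2Cre controls, -2.37 and -2.63 on the knockouts, and -3.56 and -3.02 on the CreER control and knockout. The 2 Six2Cre groups did not overlap, and the knockouts were 1.84-fold above the controls. Cd53, a leukocyte tetraspanin, was at -4.50 and -5.31 on the Six2Cre controls and -3.66 and -4.28 on the knockouts, a 1.92-fold difference without overlap. Its log2 difference of 0.94 was 0.53 without control 2, where control 5 of slide 1 alone stood against the knockouts of both slides. Cd48, an adhesion ligand of leukocytes, was 1.46-fold higher (0.57 and 0.52 in the pairs).

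The 3 general leukocyte genes without a common sign were Laptm5, Itgb2 and Coro1a. Laptm5, a lysosomal membrane protein of blood cells, was at -3.01 and -3.25 on the controls and -3.69 and -2.90 on the knockouts. The knockouts enclosed the controls, as knockout 7 was the lowest and knockout 9 the highest of the 4. Itgb2, the beta chain of the leukocyte integrins, differed by -0.19 on slide 1 and 0.44 on slide 2. Coro1a, an actin-binding protein of leukocytes, differed by -0.04 and 0.16, and its dimmer probe by 0.01 and 0.13.

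All 3 chains of C1q, the recognition part of the classical complement pathway, were higher in each knockout than in the control of its pair. C1qa was at -1.91 and -1.83 on the Six2Cre controls, -1.16 and -0.98 on the knockouts, -1.72 on the CreER control and -1.33 on the CreER knockout. The knockouts were above all controls, and the Six2Cre difference was 0.80 ± 0.25 (SE, n = 2 and 2), 1.74-fold, with an adjusted p of 0.608 in limma. C1qc was 1.68-fold higher in the Six2Cre knockouts (0.68 and 0.81 in the pairs), also without overlap. C1qb had -1.96 and -1.24 on the controls against -1.46 and -0.65 on the knockouts, so that control 2 lay above knockout 7. The pair differences of C1qb were 0.50 and 0.59. Its mean difference of 0.55 was between 0.14 and 0.95 with 1 array left out, in fits without a slide block that differences between slides enter.

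All 5 Fc receptors and signalling adaptors were higher in both Six2Cre pairs. Tyrobp, the adaptor DAP12, was at -0.77 and -0.69 on the Six2Cre controls, 0.10 and 0.02 on the knockouts, -0.72 on the CreER control and -0.28 on the CreER knockout. No control reached a knockout, and the Six2Cre difference was 1.73-fold. Trem2, a lipid-sensing receptor that signals through that adaptor, was at -2.07 and -1.70 on the Six2Cre controls, -1.44 and -0.79 on the knockouts, -1.91 on the CreER control and -1.26 on the CreER knockout. Its pair differences were 0.62, 0.91 and 0.65, so that the CreER pair was close to the slide 1 pair.

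Fcgr1, the high-affinity IgG receptor, was at -2.04 and -2.06 on the Six2Cre controls and at -1.33 and -1.11 on the knockouts, 1.78-fold higher and without overlap. Its CreER difference was 0.17, with levels of -1.56 and -1.40. Fcgr3, a low-affinity IgG receptor, was 1.60-fold higher in the Six2Cre knockouts (0.59 and 0.76 in the pairs) and differed by 0.03 in the CreER pair. Fcer1g, the common gamma chain of Fc receptors, was 1.52-fold higher, with -1.17 and -1.13 on the controls against -0.51 and -0.59 on the knockouts.

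All 4 measured scavenger and pattern recognition receptors were higher in both Six2Cre pairs. Cd14, the co-receptor for bacterial lipopolysaccharide, was at -3.56 and -3.60 on the Six2Cre controls and -2.53 and -2.53 on the knockouts. These arrays of a group lay closer together than the distance between groups, and the difference was 1.05 ± 0.24 (SE, n = 2 and 2), 2.06-fold, with an adjusted p of 0.392 in limma. In the CreER pair Cd14 was at -3.50 in the control and -3.30 in the knockout, 1.15-fold. The difference between the lines was -0.85 ± 0.41 (SE), with an adjusted p of 1.00 in limma's test of that difference.

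Mrc1, the mannose receptor of tissue macrophages, had -1.13 and -1.56 on the Six2Cre controls, -0.86 and -0.75 on the knockouts, -1.68 on the CreER control and -1.31 on the CreER knockout. The Six2Cre groups did not overlap, although the 2 pairs differed in size, with 0.26 and 0.81. Msr1, a scavenger receptor for modified lipoproteins, differed by 0.34 and 0.88 in the pairs. Cd163, the haemoglobin scavenger receptor, was dim, at -7.17 and -6.73 on the Six2Cre controls and -6.71 and -6.51 on the knockouts.

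Of the 3 enzymes, Ctss and Lyz2 were higher in both pairs and Cybb was not. Ctss, the lysosomal protease cathepsin S, had -0.37 and -0.08 on the Six2Cre controls and 0.20 and 0.76 on the knockouts, 1.62-fold higher. Lyz2, lysozyme of myeloid cells, had -5.11 and -5.07 against -4.44 and -4.45, 1.56-fold higher with no overlap. Cybb, the catalytic subunit of the phagocyte oxidase, had -4.17 and -5.77 on the controls and -5.21 and -4.85 on the knockouts. Its 2 controls spanned both knockouts, and the pair differences were -1.03 and 0.92. A dimmer Cybb probe, well above background on 4 arrays, differed by -1.12 and -0.20.

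Of the remaining surface and cytoskeletal genes, Ms4a7 differed most. This membrane protein, a marker of tissue macrophages, was at -3.99 and -3.17 on the Six2Cre controls, -2.17 and -2.13 on the knockouts, -3.06 on the CreER control and -2.37 on the CreER knockout. The knockouts were above all controls in both lines. The Six2Cre difference was 1.43 ± 0.36 (SE, n = 2 and 2), 2.69-fold, with an adjusted p of 0.466 in limma, and its probes gave 1.37 to 1.43.

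Adgre1, which encodes the macrophage antigen F4/80, was at -0.99 and -1.02 on the Six2Cre controls, -0.39 and -0.34 on the knockouts, -0.86 on the CreER control and -0.52 on the CreER knockout. All knockouts were above all controls, and the Six2Cre difference was 1.56-fold. Aif1, the actin-binding protein Iba1, was 1.71-fold higher (0.74 and 0.80 in the pairs), and Cd86, a costimulatory ligand, 1.58-fold (0.48 and 0.84). Itgam, the CD11b chain of a leukocyte integrin, was dim and differed by -0.43 and 0.12 in the pairs.

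**Figure D2:**
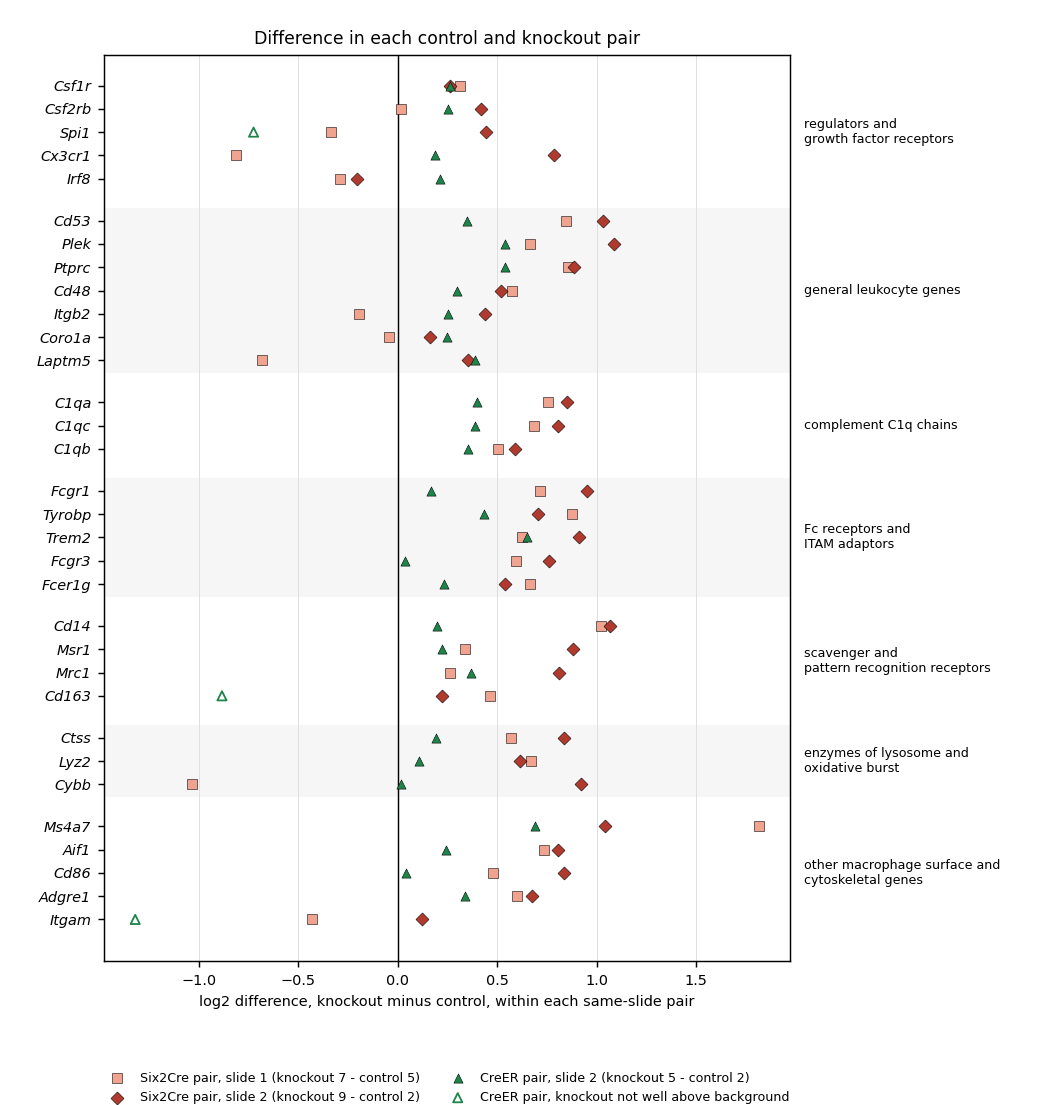
Log2 difference of knockout minus control in each same-slide pair (x axis) for the 32 measured members, grouped by role. Squares and diamonds are the Six2Cre pairs of slides 1 and 2, and triangles the CreER pair, hollow where the knockout was not well above background. In 24 members square and diamond lie above 0, and in 23 of these the triangle is also above 0.

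By the brightest probe, the signs of the pairs were opposite for 7 members, beside 40.9% of all features. These were all lower in the slide 1 pair and higher in the slide 2 pair: Laptm5, Cx3cr1, Cybb, Itgb2, Coro1a, Spi1 and Itgam. Over all features 23.4% had that order of signs and 17.5% the reverse, which no member had. Skeletal muscle markers, summed, were 56.7 on control 2 of the slide 2 pair and 5.31 on its knockout 9, but their part in these differences was not tested. Of 7 neutrophil markers, 5 had the same order of signs, Ltf was lower in both pairs and Csf3r higher in both, with a median of -0.28 on slide 1 and 0.70 on slide 2. The summed neutrophil signal ranged from 0.51 to 0.74 on the Six2Cre controls and from 0.32 to 1.36 on the knockouts, and its part in the members' differences was not tested. S100a8, a calcium-binding protein abundant in neutrophils, differed by -0.28 and 1.06 in the pairs, and Mpo, the myeloperoxidase of their granules, by -0.89 and 1.39.

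**Figure D3:**
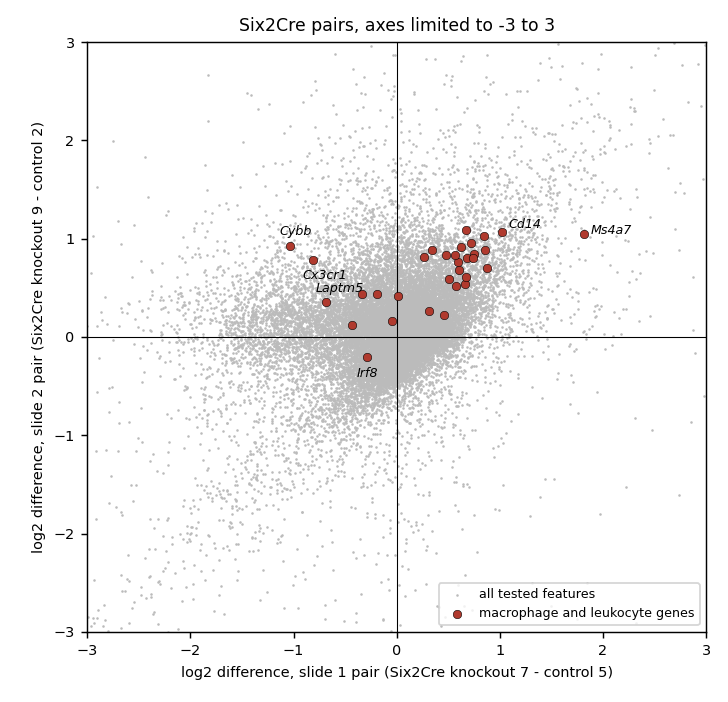
Log2 difference in the Six2Cre slide 1 pair (x axis) against that in the slide 2 pair (y axis) for 26395 tested features (grey) and the 32 measured members (red). The axes run from -3 to 3 and leave out 275 features. Of the members, 24 lie in the upper right, 7 in the upper left and Irf8 in the lower left.

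In the CreER pair, with 1 array a group and no test, the members again had higher signals in the knockout, at smaller differences. Spi1, Cd163 and Itgam were not well above background on CreER knockout 5, and their CreER control levels were below the dimmest such signal of that array, so no fold is given. The other 29 members were all above the control, with differences from 0.02 to 0.69 and a median of 0.25, where 51.9% of the features well above background on both arrays were above it. A 1.2-fold difference was reached by 13 of the 29 members and by 11.5% of those features. Only Ms4a7 and Trem2 reached 1.5-fold (background 3.32%), and none of the 29 reached 2-fold (background 1.29%). Over all 32 measured members, the median of the Six2Cre differences was 0.62. Among the 29 members well above background on all arrays the CreER difference was the smaller in 22, and in 51.5% of such features. None of the 29 was 2-fold lower (background 0.418%).

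The difference between the lines was fitted directly and passed for no member, with adjusted p-values of 1.00 in limma and 0 members at an unadjusted p under 0.05 (2.33% of all features). The smaller CreER difference is therefore not shown to differ from the Six2Cre one. The CreER knockout array also had the lowest share of probes well above background, 71.8%, whose part in the difference was not tested. Erythroid markers were higher in the CreER knockout in 10 of 10 genes with a median of 0.77, against 0.21 in the Six2Cre line, and their part in the members' differences was not tested either.

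Over all 6 arrays, with each pair as a block, the members' median difference was 0.48 against 0.01 for all features. Of the 29 members well above background on all arrays, 23 were higher in all 3 pairs (21.2% of such features). At an unadjusted p under 0.05, 18 members were higher and 0 lower (5.78% and 3.92% of features). None passed after adjustment in limma, where the members' adjusted p-values began at 0.324, that of Trem2. Its difference was 0.73 ± 0.13 (SE, 6 arrays), that of Ptprc 0.76 ± 0.13 (adjusted p 0.332) and that of Plek 0.76 ± 0.16 (adjusted p 0.385). Csf1r differed by 0.28 ± 0.11, with an adjusted p of 0.533. The values of Spi1, Cd163 and Itgam in that fit include an array on which they were not well above background.

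Other genes of macrophages and their relatives were read from lists given in full as counts. Of 43 further macrophage and myeloid genes, 33 were higher in both Six2Cre pairs and 3 lower in both, with a median of 0.30, and 0 passed limma's test in that line. With the slide block and trend and robust moderation, 5 of these 43 genes and 0 of the members passed as higher, beside 1.15% of all features. Lcp2, a signalling adaptor of blood cells, differed by 1.12, 1.43 and 0.39 in the slide 1, slide 2 and CreER pairs, and Lyve1, a hyaluronan receptor of lymphatic vessels and some tissue macrophages, by 1.08, 1.13 and 0.47. Apoe, the lipid carrier, differed by 0.54, 0.41 and 0.28, and Grn, progranulin, by -0.20, -0.31 and 0.02.

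Of 10 further myeloid transcription factors, 2 were higher and 5 lower in both Six2Cre pairs, with a median of -0.10, and 0 passed limma's test. Irf5, an interferon regulatory factor, differed by -0.66, -0.32 and 0.07 in the slide 1, slide 2 and CreER pairs, the same signs as Irf8. Tfec, a factor of the microphthalmia family, differed by -1.36, -1.16 and -0.33.

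Of the ligands of the receptors Csf1r, Cx3cr1 and Csf2rb, 4 of 6 were tested and 0 passed limma's test. Csf1, the ligand of Csf1r, differed by 0.51, 0.50 and 0.44 in the slide 1, slide 2 and CreER pairs. Il34, the second ligand of that receptor, differed by 0.39, 0.07 and 0.39, and Cx3cl1, the ligand of Cx3cr1, by -0.41, -0.57 and 0.08.

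Complement genes other than C1q did not share one direction: of 12 tested, 8 were higher and 3 lower in both Six2Cre pairs, with 0 past limma's test. Serping1, the C1 inhibitor, differed by 0.98 and 0.90. Cfb and C3, of the alternative pathway, differed by -1.53 and -1.74, and by -0.92 and -1.78. In the CreER pair, Serping1, Cfb and C3 differed by 0.39, 0.61 and 0.10.

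MHC class II presentation genes, which some macrophages and dendritic cells use to show antigen to T cells, lay on the other side of 0 from the members. Of 6 tested, 0 were higher and 5 lower in both Six2Cre pairs, 0 of 6 were higher in the CreER pair, and 0 passed limma's test. These counts include H2-Aa, which was well above background on 5 arrays only and dim on CreER knockout 5 (-6.62). H2-Ab1, a class II beta chain, was at -0.78 and -0.25 on the Six2Cre controls, -2.34 and -1.92 on the knockouts, -0.12 on the CreER control and -0.70 on the CreER knockout. Both Six2Cre knockouts were below all controls, and the difference was -1.61 ± 0.32 (SE, n = 2 and 2) with an adjusted p of 0.307 in limma. Ciita, the class II transactivator, differed by -1.61, -1.05 and -0.48 in the 3 pairs. Cd74, the invariant chain, differed by -0.48, 0.25 and -0.30.

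With the slide block and trend and robust moderation, H2-Ab1 was the class II gene called lower in limma (adjusted p 0.0084), beside 1.22% of all features. That fit left 1 residual degree of freedom, and the slide block without this moderation called no feature. The same setting called Cfb lower (adjusted p 0.016) and 2 complement genes higher, among them Serping1 (0.022). It also called 7 of the 15 stromal markers higher and 10 of the 15 nephron progenitor markers lower. Of the genes listed with blood cells it called Cd247 and Ppbp higher (adjusted p 0.046 and 0.041) and Hdc of the mast cell list lower (0.0049). Hdc was at 1.74 and 2.21 on Six2Cre controls 5 and 2, where Cpa3, the next brightest gene of that list, was at -2.55 and -2.44. Which cells of the whole kidney gave the signals of Hdc and Cd247 was not tested.

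**Figure D4:**
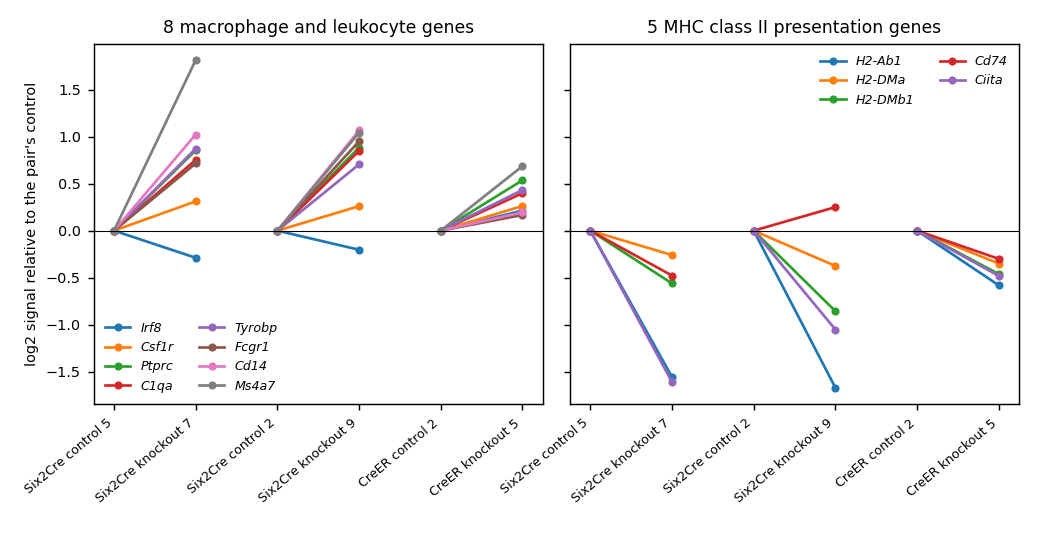
Log2 signal relative to the control of the same pair (y axis) on the 6 arrays (x axis), for 8 members (left) and 5 MHC class II presentation genes well above background on all arrays (right). Each line joins the control and the knockout of 1 pair. On the left, all lines but the 2 Six2Cre lines of Irf8 point up, and on the right all but the slide 2 line of Cd74 point down. The 8 members were picked for display and do not stand for the whole list. None of the 7 members of opposite sign in the Six2Cre pairs is among them.

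Markers of other blood cells and of kidney compartments were read beside the members. T and NK cell genes had a Six2Cre median of 0.06 (11 tested; 4 higher and 1 lower in both pairs), and B cell genes of 0.15 (7 tested). Cd3e, a chain of the T cell receptor complex, differed by 0.31, 0.23 and 0.41 in the slide 1, slide 2 and CreER pairs, and Cd247, its zeta chain, by 1.79, 1.61 and -0.20. Mast cell genes had a median of 0.17 (7 tested), with 3 higher, 2 lower and 2 of opposite sign in the pairs. Among them the protease gene Cma1 was at 0.48 and 0.69 in the Six2Cre pairs and -0.42 in the CreER pair, and Hdc, histidine decarboxylase, at -2.23, -1.86 and 0.53. Of 8 genes of haematopoietic progenitors and megakaryocytes, 7 were higher in both Six2Cre pairs with a median of 0.31, among them the platelet genes Gp9 (0.76 and 0.97) and Ppbp (1.24 and 1.23). Endothelial genes had a median of 0.07 and proliferation genes of -0.08.

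The markers of kidney stroma and of nephron progenitors differed between the groups in opposite directions. The 15 stromal genes had Six2Cre and CreER medians of 0.76 and 0.07, and a summed signal of 179 to 191 on the Six2Cre controls and 276 to 294 on the knockouts. The 15 nephron progenitor genes had medians of -1.15 and -0.46, and 14 were lower in both Six2Cre pairs. Summed nephron progenitor signal was 49.1 and 56.2 on the Six2Cre controls and 20.7 and 20.8 on the knockouts, so that these markers moved with the genotype, and their part in the members' differences was not tested. The members' own summed signal was 7.88 and 8.92 on the Six2Cre controls, 11.1 and 13.9 on the knockouts, and 9.45 and 11.7 on the CreER control and knockout. That of the 43 further macrophage and myeloid genes was 144 and 148 on the Six2Cre controls and 144 and 141 on the knockouts. It was 117 and 124 on the CreER control and knockout. Grn alone made up most of this sum, so it does not describe the other genes of the list. Grn was at 6.61 and 6.59 on Six2Cre controls 5 and 2 and at 6.41 and 6.28 on knockouts 7 and 9. Ctsb, the next brightest, was at 3.34 and 3.32 on those controls. Of the 43 genes, 33 were higher and 3 lower in both Six2Cre pairs.

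**Figure D5:**
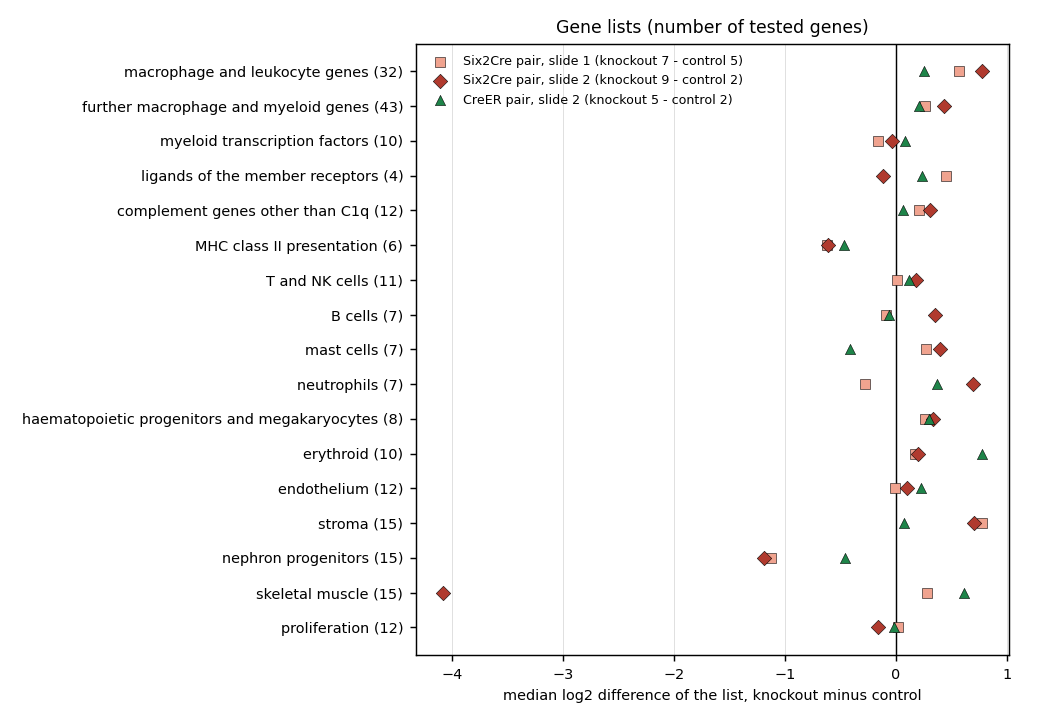
Median log2 difference of knockout minus control (x axis) in each same-slide pair for the members and 16 other gene lists, with the number of tested genes in parentheses. Squares and diamonds are the Six2Cre pairs of slides 1 and 2, and triangles the CreER pair. The members' medians are 0.57, 0.77 and 0.25, and those of MHC class II presentation genes -0.62, -0.62 and -0.47. The medians include tested genes that were not well above background on every array.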

How the data were processed

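The authors labelled 0.25 ug of RNA per array with Cy3 and read the scans in Feature Extraction 10.5.1.1. The deposited processed signal, per the file headers, is a linear intensity, background-subtracted and not normalized between arrays; 100% of the values in the deposited series table equalled it within a relative 0.001. Scan batches followed slides. Spots were averaged, 40987 of 41174 probes without an outlier flag were kept, and 24999 were named through RefSeq accessions (reference GRCm38.p6; probes are given no positions, because the array's design uses another build, and the promoter windows alone have coordinates, in GRCm38.p6). The log2 intensity minus the array's 75th percentile was analysed. Features well above background on at least 2 arrays were tested with limma 3.58.1 (lmFit, eBayes, two-sided, Benjamini-Hochberg) (R 4.3.3; data.table version 1.17.8), with code tested on simulated data; figures used matplotlib 3.10.9 in Python 3.11.15. A fit of 4 groups held the Six2Cre contrast and the interaction of line with genotype; a second gave genotype over 6 arrays with line and slide. Alternatives were the slide block, moderation with trend, normexp (offset 50), quantile or median scaling, the deposited table, the filter, the probe rule and each array left out. The members and lists were chosen with earlier results of these data known. Genes of other lists were named when among the 5 brightest or the 3 with the largest Six2Cre difference of their list. For 16 members, more than 1 probe was well above background on at least 2 arrays. In 15 of them these probes shared the sign of the mean Six2Cre difference, and in Cx3cr1 they did not. Signs within a slide pair could still differ between probes, as for Cybb and Coro1a.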

Additional observations from a re-analysis of the deposited data

Results flagged for a closer look

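Irf8 was lower in both Six2Cre pairs (-0.25 in the mean) and higher in the CreER pair (0.21), which is every array of each line on opposite sides. The difference between the lines was 0.46 ± 0.43 (log2, SE), with an adjusted p of 1.00 in limma, so it is not shown to differ between the lines.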

How the results depend on the processing

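Arrays could not be paired by replicate number, because the numbers differ between the control and knockout arrays of each line. Same-slide pairs were used in place of that, and the slide block brought no member past an adjusted p of 0.05 in limma. The settings that moved counts of called features were these. In the Six2Cre contrast, 625 features were called with the slide block, trend and robust moderation (303 higher, 322 lower; no member, the lowest adjusted p being 0.0539 for Ms4a7) and 127 with the array median subtracted, in place of 0. In the genotype contrast over 6 arrays, 12 were called with trend and robust moderation, 2 with line left out, 36 with normexp and 59 with the array median subtracted, in place of 0. In the CreER pair, 1058 features differed 2-fold or more, against 159 with normexp, 5042 without a filter and 337 when well above background on all 6 arrays. No cause of these shifts was tested.

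Leaving out 1 array gave 0 to 0 called features in the Six2Cre, genotype and between-line fits. The members' Six2Cre median lay between 0.46 (without knockout 9) and 0.64, with 23 to 30 members higher. All remaining knockouts were above all remaining controls for 21 to 28 members, and for 34.2% to 38.7% of all features. These Six2Cre fits had no slide block. With 1 array left out, arrays of both slides stood against 1 array of 1 slide, so differences between slides enter these values. Of the 24 members higher in both Six2Cre pairs, 11 moved by over 1.5 times without 1 array. Beside those whose sign changed, without control 5 these were C1qb (0.19) and Cd163 (0.12), and without knockout 7 C1qb (0.95) and Cd53 (0.62). Without control 2 they were C1qb (0.91), Cd163 (0.56), Cd53 (0.53), Mrc1 (0.32) and Plek (0.53). Without knockout 9 they were C1qb (0.14), Ctss (0.42), Fcgr3 (0.45), Msr1 (0.39) and Trem2 (0.44). The median over 6 arrays lay between 0.38 and 0.62, with 25 to 29 members higher. Reversed signs were those of members whose difference in the main fit was at most 0.29 in size, that of Csf1r. For Cybb (-1.03 and 0.92 in the slide pairs) and Cx3cr1 (-0.81 and 0.79), the small Six2Cre mean came from large opposite pair differences. Cx3cr1 in the Six2Cre line was 0.0107 with normexp, 0.0293 with quantile scaling, 0.0256 with the array median and 0.14 with the mean of probes, and Spi1 was -0.0354 with normexp. Over 6 arrays, normexp gave 0.12 for Cd163, 0.00514 for Cybb and 0.0356 for Spi1. With 1 array left out, Six2Cre differences ranged across 0 for Coro1a (-0.18 to 0.31), Csf1r (-0.10 to 0.67), Csf2rb (-0.092 to 0.52), Cx3cr1 (-0.60 to 0.57), Cybb (-0.85 to 0.74), Itgam (-0.44 to 0.13), Itgb2 (-0.12 to 0.37), Laptm5 (-0.56 to 0.23) and Spi1 (-0.29 to 0.39). Over 6 arrays they did so for Cd163 (-0.33 to 0.34), Cx3cr1 (-0.31 to 0.49), Cybb (-0.51 to 0.47), Irf8 (-0.25 to 0.0051), Laptm5 (-0.16 to 0.37) and Spi1 (-0.53 to 0.053). The lone array left in a group was assumed to vary like the others. In the Six2Cre line, 427 values of single members under an alternative kept sign and side of the threshold and 18 changed sign. Part of the 427 could not change sign. The slide block and the moderation with trend leave the difference itself as it was, and the deposited table holds the same signals. The 427 are therefore no measure of robustness.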
